A study of Mus musculus with 12 samples.

Results

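Lrrc28, Pgpep1l, Hddc3, Sh3gl3 and RP23-474B13.5 are 5 genes of mouse chromosome 7 that encode no odorant receptor. They were picked from the 46297 genes of the deposited table by symbol, because their levels in olfactory mucosa had differed between mice lacking the enhancer element A and wildtype mice, either across the groups or in all but a pair of libraries. The values that chose them are those described here, so the differences between the groups at these 5 genes are a description and carry no test. All 5 had a mean value high enough to be tested, a mean of at least 10 normalized counts over the 12 libraries, as had 19373 genes in all.

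The study sequenced total RNA, after removal of ribosomal RNA, from olfactory mucosa dissected from 12 males, all at postnatal day 30. Of these, 6 carried the enhancer A deletion, which removes 912 bp of chromosome 7 from 102509701 to 102510612, and 6 were wildtype; the strain label of both groups is 129S6;C57BL/6J. The labels do not say whether the deletion was carried on one or both chromosomes, whether the groups were littermates, or which strain contributed which stretch of chromosome 7. The libraries held 13011763 to 23039733 reads on annotated genes, and a normalized count is such a read number divided by the size factor of its library. The labels were checked at the element: Olfr544, the odorant receptor gene 21.4 kb before it, had 4.39 to 16.0 normalized counts in the deletion libraries and 89.8 to 160 in the wildtype libraries. Of 48 marker genes of 13 cell types of the mucosa, 45 could be tested and 0 passed the 5% threshold (4 at an unadjusted p under 0.05, limma), and every defining marker had reads. Among all tested genes 0.372% passed, so 0 of 45 does not show that the mixture of cells was alike. All 9 markers of mature olfactory neurons were higher in the deletion group (median log2 change 0.09), and all 4 of immature neurons lower (median -0.02). The satellite-like gene Gm10800 took 4.50% and 2.78% of reads in deletion libraries 3 and 6, and 7.80% and 7.01% in wildtype libraries 2 and 3, against at most 0.885% in the others.

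The 4 genes with a known product do unrelated work. Sh3gl3 encodes endophilin A3, whose BAR domain bends membrane and whose SH3 domain recruits dynamin and synaptojanin when clathrin-coated vesicles pinch off, and which is best known from brain and testis. Hddc3 encodes MESH1, a hydrolase of the HD domain family related to the bacterial enzymes that break down the starvation signal ppGpp; the human enzyme removes a phosphate from NADPH. Pgpep1l is named for its likeness to pyroglutamyl-peptidase I, which clips the pyroglutamate cap off peptides, and Lrrc28 encodes a protein of leucine-rich repeats, a fold that often binds other proteins. RP23-474B13.5, which the reference annotation calls Gm45199, belongs to its TEC class, transcribed regions still awaiting experimental support as genes, and has no known product. In crosses between strains, alleles of genes linked to an engineered site can be inherited together with it; the alleles of these animals were not analysed here, and their part in the levels below was not tested.

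All 5 genes lie before the element, on the side of lower coordinates, and far from it. In GRCm38 coordinates, Lrrc28 (ENSMUSG00000030556.13) spans 67513410 to 67645268 on the minus strand, ending 34864 kb before the element. Pgpep1l (ENSMUSG00000030553.3) follows at 68236610 to 68264233, also on the minus strand, 591 kb beyond Lrrc28. Hddc3 (ENSMUSG00000030532.6) lies on the plus strand at 80343104 to 80350547, and Sh3gl3 (ENSMUSG00000030638.13) on the same strand at 82173840 to 82307419, with 1823 kb between them. RP23-474B13.5 (ENSMUSG00000109395.1), on the plus strand at 92706773 to 92708279, is the nearest to the element at 9801 kb. The genes thus form a pair (Lrrc28 and Pgpep1l), a second pair (Hddc3 and Sh3gl3) 12079 kb further on, and a single gene 10399 kb beyond that.

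The promoters of the 4 named genes are shown because genes that differ together, in both directions, invite a look at what they share in sequence. Each window runs 5′ to 3′ on the strand of its gene for 240 bases, from 250 to 11 bases before the RefSeq start in GRCm38.p6. The windows are chr7:67645247-67645486 (minus strand) for Lrrc28, chr7:68264244-68264483 (minus strand) for Pgpep1l, chr7:80342887-80343126 (plus strand) for Hddc3 and chr7:82174546-82174785 (plus strand) for Sh3gl3. The RefSeq starts of Lrrc28, Hddc3 and Sh3gl3 differ from the gene limits given above, and that of Pgpep1l falls on its limit. The Sh3gl3 window lies wholly inside the gene span, which starts at 82173840, and in part within RP23-341H2.6 on the other strand. Those of Lrrc28 and Hddc3 reach a few bases into their genes. Capitals mark matches on either strand to CCAAT, the box bound by NF-Y, and to GGGCGG, the GC box bound by Sp1.
Lrrc28: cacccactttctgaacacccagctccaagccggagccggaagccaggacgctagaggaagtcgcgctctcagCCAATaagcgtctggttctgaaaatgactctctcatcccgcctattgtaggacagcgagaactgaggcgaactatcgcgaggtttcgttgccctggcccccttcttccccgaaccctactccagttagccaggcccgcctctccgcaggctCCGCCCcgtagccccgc
Pgpep1l: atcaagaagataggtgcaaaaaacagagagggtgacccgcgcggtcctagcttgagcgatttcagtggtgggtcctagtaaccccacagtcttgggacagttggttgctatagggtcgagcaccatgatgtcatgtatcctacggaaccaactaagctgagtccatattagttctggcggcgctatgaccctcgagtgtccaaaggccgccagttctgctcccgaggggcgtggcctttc
Hddc3: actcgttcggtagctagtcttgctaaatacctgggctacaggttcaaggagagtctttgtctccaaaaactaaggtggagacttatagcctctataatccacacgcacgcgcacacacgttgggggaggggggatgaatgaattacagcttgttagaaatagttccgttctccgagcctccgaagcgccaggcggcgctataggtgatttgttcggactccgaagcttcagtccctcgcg
Sh3gl3: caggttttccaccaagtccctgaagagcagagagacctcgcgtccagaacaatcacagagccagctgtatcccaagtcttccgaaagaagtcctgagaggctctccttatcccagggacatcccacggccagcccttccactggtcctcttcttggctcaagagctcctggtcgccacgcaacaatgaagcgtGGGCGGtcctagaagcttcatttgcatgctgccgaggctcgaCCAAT

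Lrrc28 and Sh3gl3, which differed between the groups in opposite directions, each held 1 CCAAT box and 1 GC box, while the windows of Pgpep1l and Hddc3 held neither. Among 32851 mouse promoters of the same window, 33.0% held CCAAT and 31.3% held GGGCGG, so neither match was unusual. None of the 4 windows held TATAAA (12.1% of promoters) or TAATTA, a core bound by homeodomain factors (4.77%),, each searched on both strands. The windows held 18 CG pairs for Lrrc28, 12 for Pgpep1l, 16 for Hddc3 and 10 for Sh3gl3, against a median of 5 and quartiles of 2 and 15 over all promoters.

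The levels fell into a pair of patterns. At Lrrc28, Pgpep1l, Hddc3 and Sh3gl3 the groups overlapped, since wildtype library 1 stood at the level of the deletion libraries; deletion library 3 stood between the other libraries of both groups, least clearly at Sh3gl3. At RP23-474B13.5 every library sat with its own group. Lrrc28 and Pgpep1l were higher, and Hddc3, Sh3gl3 and RP23-474B13.5 lower, in the mean of the deletion group. By limma with adjustment over all genes, 1 of the 5 (RP23-474B13.5, lower) passed 5%, where 0.372% of all 19373 tested genes passed (0.341% lower and 0.031% higher). By the same rule 1 of the 1384 tested non-receptor genes of chromosome 7 passed, which is 0.0723% and is RP23-474B13.5 itself. On recovered reads edgeR also called 1 of these, and 67 over all genes. DESeq2 on recovered reads called 88 over all genes, and 4 among non-receptor genes of chromosome 7, namely Lrrc28, Hddc3, Sh3gl3 and RP23-474B13.5. That is 0.111% of 3608, a base of every such gene with a p-value, also any without an adjusted p.

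Lrrc28 ranged over 391, 465 and 513 normalized counts in the deletion libraries (lowest, median, highest) and over 277, 313 and 462 in the wildtype libraries. Its highest wildtype library was number 1, at 462, within the range of the deletion libraries, and its lowest deletion library was number 3, at 391, between the other libraries of both groups. The mean was 464 ± 42.3 in the deletion and 333 ± 65.1 in the wildtype group (SD, n = 6 each), a log2 change of 0.49 ± 0.11 (SE, deletion over wildtype, on log2 of the value plus 1 as throughout). Leaving wildtype library 1 and deletion library 3 aside, the groups were at 478 ± 25.4 and 308 ± 18.8 (SD, n = 5 each), without overlap.

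Pgpep1l showed the same arrangement of libraries at a wider spread. Its lowest, median and highest values were 58.3, 96.9 and 109 in the deletion libraries, against 16.9, 23.7 and 105 in the wildtype libraries. Again the 105 was wildtype library 1 and the 58.3 was deletion library 3, while the other 5 wildtype libraries stayed at or under 28.8. The means were 92.6 ± 18.8 in the deletion and 35.9 ± 33.97 in the wildtype group (SD, n = 6 each), and the log2 change was 1.65 ± 0.35 (SE). The SD of the wildtype group, with that library in it, is nearly as large as the mean; without that library and deletion library 3 the means were 99.4 ± 9.50 and 22.1 ± 5.33 (SD, n = 5 each), a 4.49-fold difference. Of all genes tested, Pgpep1l had the profile over the 12 libraries most like that of Lrrc28, and Lrrc28 the one most like that of Pgpep1l.

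Hddc3 ran the other way. It had 91.1, 105 and 218 normalized counts in the deletion libraries and 105, 264 and 338 in the wildtype libraries (lowest, median, highest). Here the high deletion value of 218 was library 3 and the low wildtype value of 105 was library 1, which lay among the other deletion libraries (91.1 to 108), while the other wildtype libraries held 254.6 or more. The means were 121 ± 48.3 in the deletion and 257 ± 82.1 in the wildtype group (SD, n = 6 each), with a log2 change of -1.07 ± 0.26 (SE), and 101 ± 7.42 against 288 ± 37.6 (SD, n = 5 each) without those libraries. Within each group of 5, the SD was then 7.42 and 37.6 around a difference of the means that reached 2.85-fold.

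The locus of Hddc3 holds genes on its other strand whose exons overlap it, and since the strand setting of the counting is not given in the sources used here, reads of such partners cannot be told apart. Man2a2, a Golgi mannosidase of glycan processing, had 2021 ± 64.8 normalized counts in the deletion and 2310 ± 289 in the wildtype group (log2 change -0.18, adjusted p 0.728, limma). Wildtype library 1 was at 1831, the lowest of all 12, and the groups overlapped. RP23-137A24.3 (Gm18310 in the annotation), named here for lying inside Hddc3, had 14.97 to 33.4 in the deletion and 8.45 to 35.2 in the wildtype libraries, with 35.2 in wildtype library 1. Its log2 change had the opposite sign to that of Hddc3, at 0.61 ± 0.31 (SE), but did not pass 5% (adjusted p 0.744, limma), and the groups overlapped. Sh3gl3 also has a partner on the other strand with overlapping exons, RP23-341H2.6 (Gm45089), which was at 0 in 11 libraries and at 8.07 in wildtype library 3, the library in which Sh3gl3 was highest (68.0).

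Sh3gl3 was a low gene, with 7 to 60 reads per library, so that counting error is a large part of each value. It had 6.48, 13.7 and 24.0 normalized counts in the deletion libraries and 14.8, 46.9 and 68.0 in the wildtype libraries (lowest, median, highest). Wildtype library 1, at 14.8, was the only wildtype library within the deletion range, and deletion library 3, at 24.0, was the highest of its group, next to library 6 at 19.97. The means were 14.5 ± 6.86 in the deletion and 44.5 ± 17.8 in the wildtype group (SD, n = 6 each), a log2 change of -1.55 ± 0.36 (SE), and 12.6 ± 5.62 against 50.5 ± 11.4 (SD, n = 5 each) without those libraries, 4.01-fold higher in wildtype.

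RP23-474B13.5 separated the groups in every library. It had 2.00, 3.10 and 5.61 normalized counts in the deletion libraries and 23.1, 29.5 and 41.7 in the wildtype libraries (lowest, median, highest), which is 2 to 5 reads against 23 to 40. Deletion library 3 held 3.43 and wildtype library 1 held 37.0, both inside their own group. The means were 3.49 ± 1.32 and 30.9 ± 7.32 (SD, n = 6 each), 8.86-fold lower in the deletion group, with a log2 change of -2.85 ± 0.27 (SE). Groups without overlap were found at 0.588% of all tested genes and at 0.434% of the non-receptor genes of chromosome 7.

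**Figure D1:**
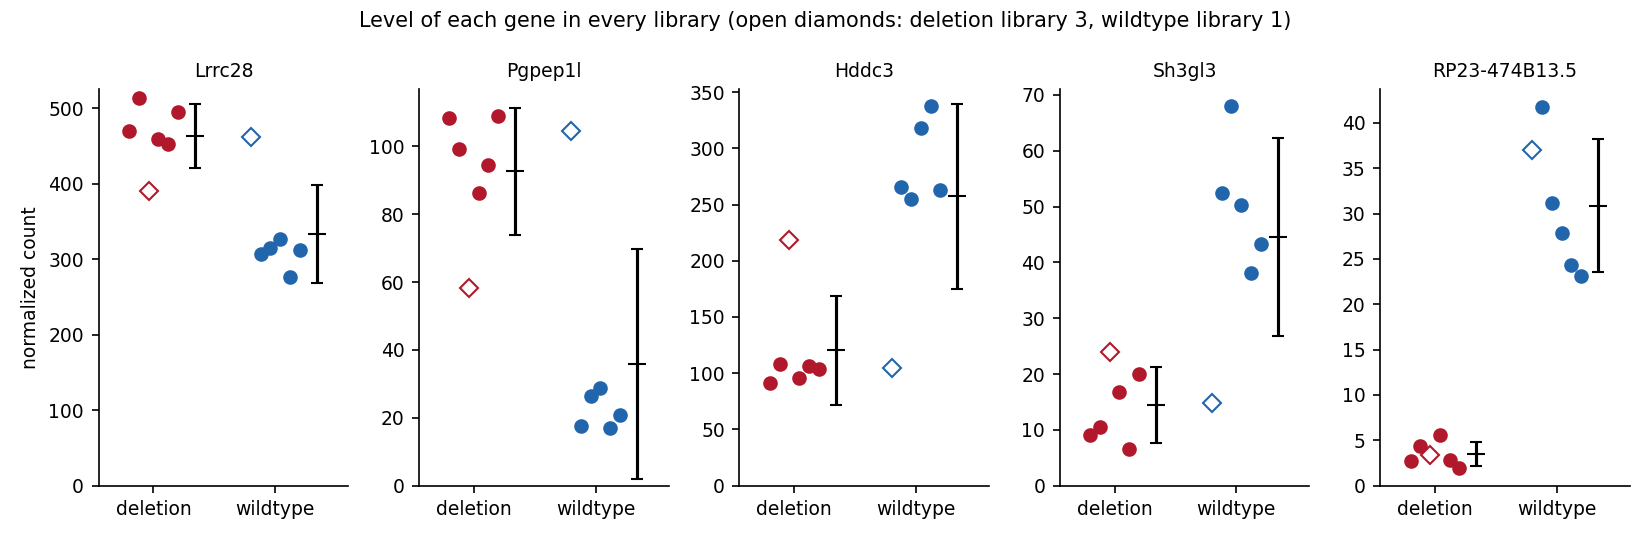
Normalized counts (vertical axis, from 0) of the 5 genes in each of the 6 deletion libraries (red, left) and 6 wildtype libraries (blue, right) of each panel, in library order, with the group mean and SD as black bars. The open diamonds are deletion library 3 and wildtype library 1: the wildtype diamond lies at the height of the deletion group in the first 4 panels, at 462, 105, 105 and 14.8, and with its own group in the last, at 37.0.

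Set beside transcript length, the genes also differ in how much signal they give per base of exon. Pgpep1l averaged 92.0 and 35.6 normalized counts per kb of annotated exon in the deletion and wildtype groups, Lrrc28 53.5 and 38.4, and Hddc3 31.9 and 68.2. Sh3gl3, at 3.35 and 10.3, and RP23-474B13.5, at 2.31 and 20.5, were the lowest of the 5 in both groups. In the deletion group the order was therefore Pgpep1l, Lrrc28, Hddc3, Sh3gl3, RP23-474B13.5, and in the wildtype group Hddc3 led. In the wildtype group Lrrc28 and Pgpep1l were close per kb only with wildtype library 1 included: without it and deletion library 3 they stood at 35.5 and 22.0.

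To put a number on where a library stood, each was placed on a scale on which 0 is the deletion mean and 100 the wildtype mean of log2 values, with that library left out of its own mean. Wildtype library 1 then stood at 0.20 for Lrrc28, -10.04 for Pgpep1l, -10.07 for Hddc3 and 8.58 for Sh3gl3, and at 112 for RP23-474B13.5. Deletion library 3 stood at 53.7 for Lrrc28, 42.6 for Pgpep1l, 88.2 for Hddc3 and 57.2 for Sh3gl3, and at 1.31 for RP23-474B13.5. So the same library changed sides between Sh3gl3 and RP23-474B13.5 in the wildtype group, and the same library of the deletion group was displaced at the first 4 genes and not at the fifth. On normalized counts themselves, with both libraries left out of the means, deletion library 3 lay at 51.2% of the way for Lrrc28, 53.2% for Pgpep1l, 62.7% for Hddc3 and 30.2% for Sh3gl3.

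The odorant receptor genes Olfr292, Olfr295, Olfr297 and Olfr304, which lie between Sh3gl3 and RP23-474B13.5 at 15812 to 16123 kb before the element, resembled the first 4 genes in wildtype library 1. Wildtype library 1 held 62.0 normalized counts of Olfr292, 140 of Olfr295, 201 of Olfr297 and 8.32 of Olfr304, and the other 5 wildtype libraries 19.5 to 26.9, 27.5 to 68.7, 10.6 to 39.1 and 37.6 to 53.9. In deletion library 3 only Olfr295 (92.5, against 130 to 183 in the other deletion libraries) and Olfr297 (115, against 173 to 231) stood outside their group. Olfr292 (50.3, against 48.2 to 97.5) and Olfr304 (11.4, against 3.99 to 11.7) lay within it. Next to the element, Olfr543, Olfr544 and Olfr545 followed RP23-474B13.5 instead: wildtype library 1 held 92.5, 119 and 14.8 normalized counts, and deletion library 3 held 11.4, 16.0 and 1.14. Along the chromosome the side of wildtype library 1 was not the same for every gene. Among non-receptor genes whose groups do not overlap without these libraries (named after their values were seen), it stood at 11.8 for RP24-330M21.1 and 75.3 for RP23-264H19.2, which lie between Olfr292 and RP23-474B13.5. It stood at 83.5 for Fut2, 69.0 for Nup62, 61.2 for Wdr93 and 97.3 for Fsd2, which lie before Olfr292, on the scale with both libraries left out of the means.

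**Figure D2:**
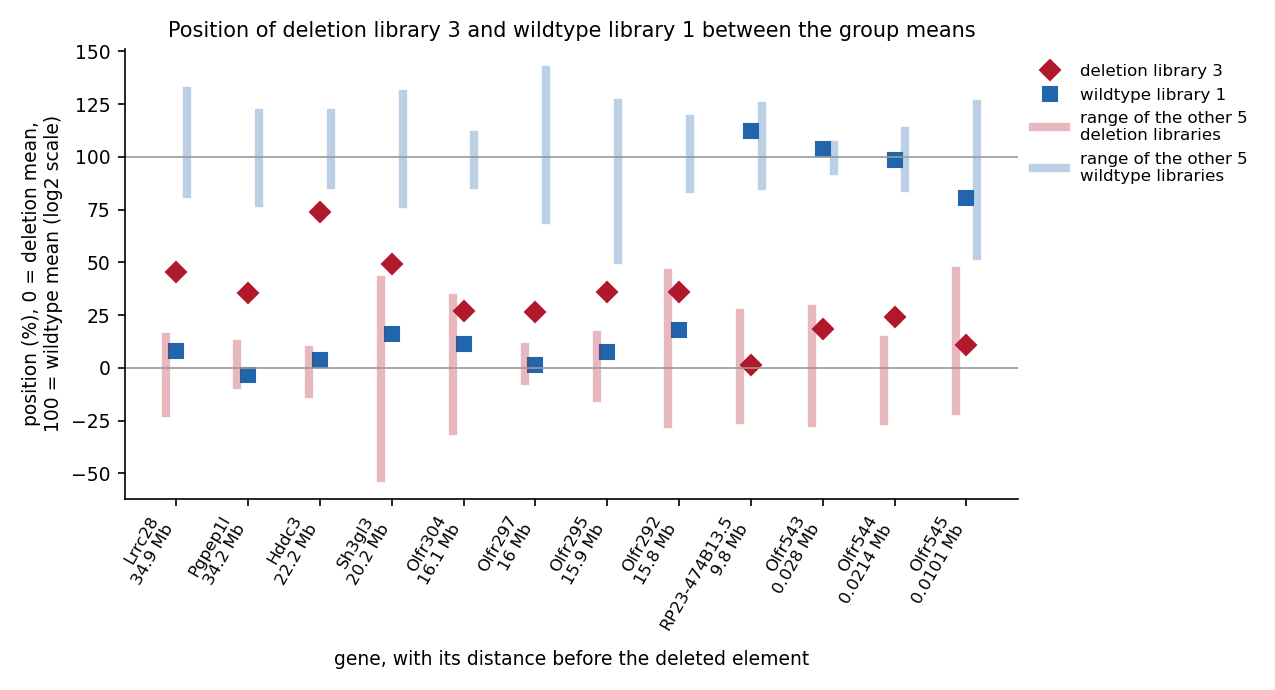
Position in % (vertical axis, log2 scale, 0 = deletion mean, 100 = wildtype mean, both without deletion library 3 and wildtype library 1) of deletion library 3 (red diamonds) and wildtype library 1 (blue squares) for the 5 genes, 4 receptor genes of the same stretch and 3 receptor genes beside the element, ordered by distance before the element in Mb. Pale bars give the range of the other 5 libraries of each group. Wildtype library 1 stands near 0 for the 8 genes on the left, between -3.57 (Pgpep1l) and 18.1 (Olfr292), and near 100 for the 4 on the right, and deletion library 3 is at 74.0 for Hddc3 and at 1.33 for RP23-474B13.5.

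Cell type markers were set beside the libraries that stood apart. Summed over 9 markers of mature olfactory neurons, the deletion libraries held 168986 to 193946 normalized counts and the wildtype libraries 155357 to 192491; deletion library 3 was the lowest of its group and wildtype library 1, at 164777, lay inside the range of its own. The erythroid sum was highest in wildtype library 1, at 2687 against 1130 to 1607 in the other wildtype libraries and 900 to 1899 in the deletion libraries. In a mixed tissue, fewer cells of a type and less RNA per cell cannot be told apart. The part of these values, and of the Gm10800 share, in the levels of the 5 genes was not tested beyond the covariate fits, in which the log2 changes kept their direction. With Gm10800 as a covariate the log2 change moved from -1.55 to -1.13 at Sh3gl3 and from -1.07 to -0.85 at Hddc3. It moved from 1.65 to 1.53 at Pgpep1l, 0.49 to 0.45 at Lrrc28 and -2.85 to -2.91 at RP23-474B13.5.

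The genes lying next to the 5 were not chosen on the contrast and could be tested. The 3 nearest tested named genes on each side gave 27 genes, and 0 of them passed 5% (limma, adjusted over all genes, smallest adjusted p 0.216, for Prcp). Among all tested genes 0.372% passed, so 0 of so few genes is near that share. By limma 8 of the 27 had an unadjusted p under 0.05, a larger share than the 5.63% of tested non-receptor genes on the other chromosomes. At 0 of the 27 were the groups free of overlap over all 12 libraries, beside 0.588% of all tested genes. Without wildtype library 1 and deletion library 3 they were so at Rccd1, Man2a2, Hdgfrp3 and Tm6sf1, beside 1.35% of all tested genes. Those libraries were left out for their values at the 5 genes, so this is a description. The log2 changes of the 27 lay between -0.37 (Rccd1) and 0.65 (Tm6sf1), with a median of -0.03, beside a median of 0.01 over all tested genes. Of the 27, 15 were within 0.1 of 0. Taking the 3 nearest tested genes on each side whatever their name gave 28 genes, 8 of them clone-named and not among the 27. Again 0 passed 5% by limma, and 8 of the 28 had an unadjusted p under 0.05, also a larger share than that 5.63%. The range of log2 changes reached -0.98 ± 0.34 (SE) at RP24-78M9.2, a low gene 34.1 kb beyond Lrrc28. That gene had 8.43 ± 3.99 normalized counts in the deletion and 17.9 ± 7.95 in the wildtype group (SD, n = 6 each). Within 2 Mb of RP23-474B13.5, RP24-267C3.3 stood at -1.17.

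Some of the adjoining genes are almost in contact with a gene of the 5. Ttc23, a cilium-associated gene that begins 2.14 kb beyond Lrrc28, had 242 ± 16.4 normalized counts in the deletion and 233 ± 19.0 in the wildtype group (SD, n = 6 each; log2 change 0.06 ± 0.07, SE). Igf1r, the receptor of insulin-like growth factor 1, ends 2.94 kb before Pgpep1l and had 3268 ± 261 and 3202 ± 312 (log2 change 0.03 ± 0.07). Unc45a, a chaperone of myosin, ends 2.10 kb before Hddc3 and had 3637 ± 160 and 3602 ± 515 (log2 change 0.03 ± 0.08). The adjusted p was 0.876 for Ttc23, 0.930 for Igf1r and 0.951 for Unc45a (limma).

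Around Hddc3 and Sh3gl3 several adjoining genes had wildtype library 1 at the end of its group on the side of the deletion mean, and none passed 5%. It was so at Rccd1, Tm6sf1, Man2a2, Hdgfrp3, Saxo2, Fes and Efl1, and not at Unc45a, Prc1, Furin, Btbd1 and Adamtsl3. Rccd1 and Tm6sf1 had the lowest and the highest log2 change of these. Rccd1, which encodes a partner of a histone demethylase in human cells and ends 18.6 kb before Hddc3, had 157 ± 12.5 normalized counts in the deletion and 203 ± 23.5 in the wildtype group, with 161 in wildtype library 1 and 191.5 or more in the other wildtype libraries. Its log2 change was -0.37 ± 0.09 (SE) and its adjusted p 0.238 (limma). Tm6sf1, a membrane protein gene 289 kb before Sh3gl3, had 58.9 ± 5.39 and 38.3 ± 10.8 (log2 change 0.65 ± 0.18, adjusted p 0.332). At Tm6sf1 wildtype library 1 was the highest of its group, at 51.8, but libraries 2 and 3 were close to it, at 44.4 and 47.2, and the other 3 were at 27.5 to 31.1.

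Of the 6 named genes around RP23-474B13.5, 4 had a negative and 2 a positive log2 change. Pcf11, Ankrd42, Rab30 and Ddias, on both sides of it, had log2 changes of -0.13, -0.16, -0.17 and -0.13, Ccdc90b one of 0.06 and Prcp, a lysosomal peptidase 166 kb beyond it, one of 0.33 ± 0.08 (SE). Prcp had 498 ± 37.3 normalized counts in the deletion and 397 ± 48.0 in the wildtype group, with an adjusted p of 0.216 (limma). None of these 6 came near the change at RP23-474B13.5 itself.

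**Figure D3:**
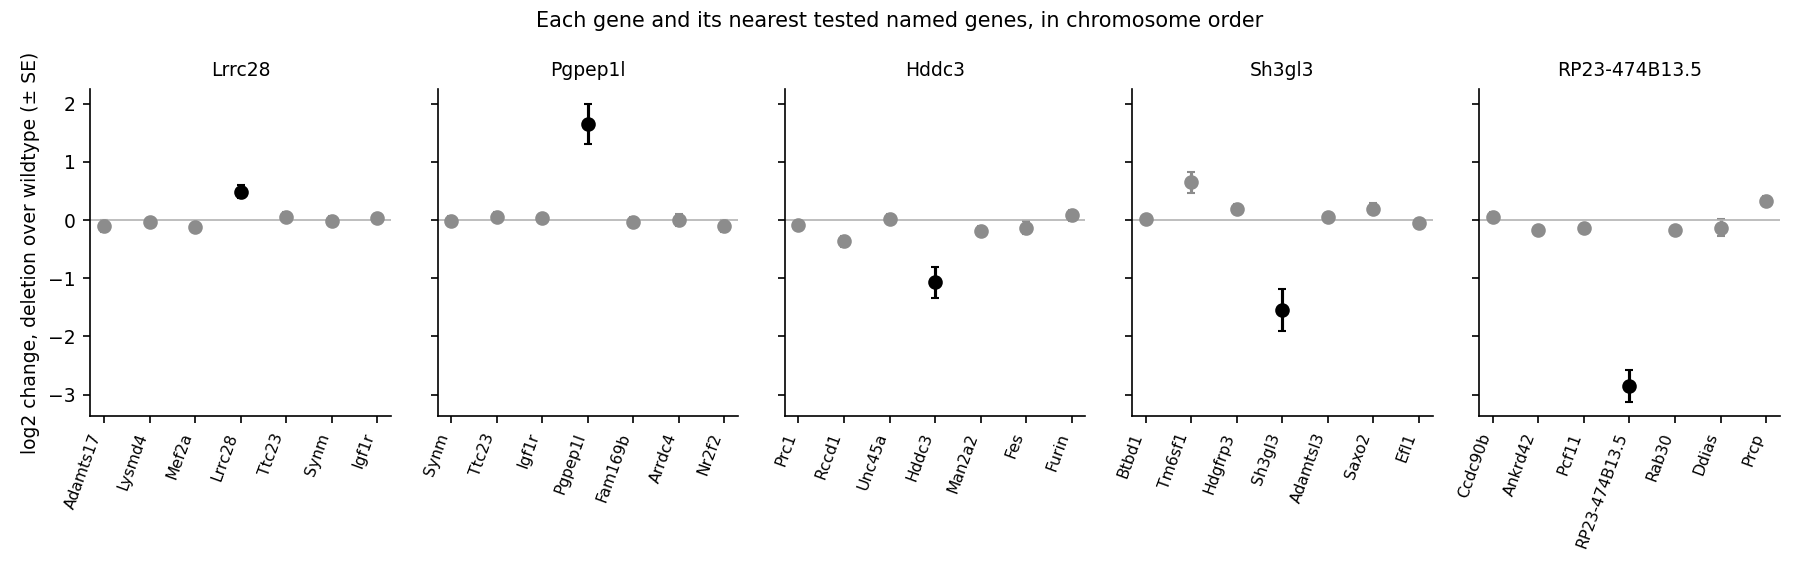
Log2 change (deletion over wildtype, vertical axis, with the SE as bars) of each of the 5 genes (black) and of the 3 nearest tested named genes on either side (grey), in chromosome order. The grey points stay between -0.37 (Rccd1) and 0.65 (Tm6sf1), while the black points lie at 0.49, 1.65, -1.07, -1.55 and -2.85.

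Over a wider stretch of chromosome 7, non-receptor genes differed more often on the side of the element where the 5 genes lie. In the 60 Mb before the element, 76 of 479 tested non-receptor genes (15.9%) had an unadjusted limma p under 0.05, against 44 of 905 (4.86%) on the rest of the chromosome and 5.63% on the other chromosomes. Without the 5 genes themselves the share was 14.98% of 474. The limits of this stretch were set after the values were seen, and the shares carry no test. In bins of 10 Mb, the 6 bins of the stretch held 10.3% to 21.4%, and the other 9 bins 1.07% to 6.43%.

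With wildtype library 1 and deletion library 3 left out, the groups did not overlap at 43 non-receptor genes of chromosome 7 (3.11% of 1384), against 0.703% of those on other chromosomes and 1.35% of all tested genes. The stretch before the element held 38 of the 43, or 7.93% of its tested genes, and the rest of the chromosome 0.552%. All 5 genes are among the 38; the libraries were left out because they stand apart at these genes, so this says nothing about the 5. Of the other 32 such genes that lie 60 to 10 Mb before the element, wildtype library 1 was nearer to the deletion mean at 27 and deletion library 3 nearer to the wildtype mean at 16. On the rest of chromosome 7 the same held for 4 and 3 of 5 such genes, among them Itgal, which lies beyond the element, and on other chromosomes for 55 and 71 of 119. In the last 10 Mb before the element there was 1 such gene besides RP23-474B13.5, Fam181b, with both libraries on their own side (named after its values were seen).

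**Figure D4:**
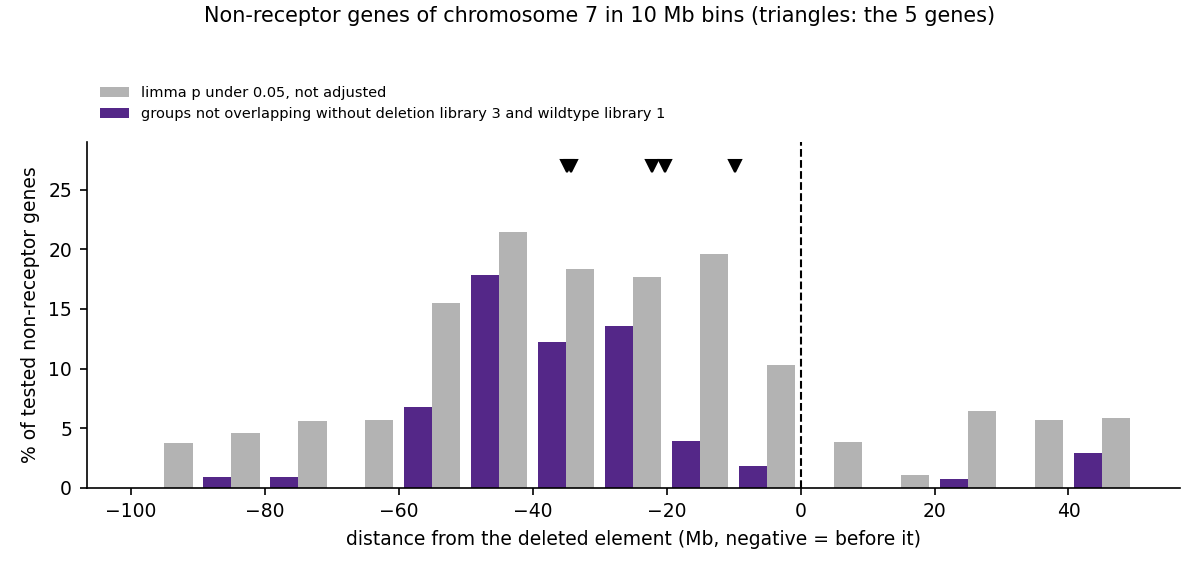
Share of tested non-receptor genes of chromosome 7 (vertical axis, %) in 10 Mb bins by distance from the element (horizontal axis, Mb, negative before it), with an unadjusted limma p under 0.05 over all 12 libraries (grey) and with groups that do not overlap when deletion library 3 and wildtype library 1 are left out (purple); triangles mark the 5 genes and the dashed line the element. The grey bars of the 6 bins before the element stand at 10.3% to 21.4% and all other grey bars at or under 6.43%.

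Leaving out wildtype library 1 alone brought the limma calls among non-receptor genes of chromosome 7 to 10 (0.722%), with 1 call (0.0059%) on all other chromosomes. With deletion library 3 left out as well there were 11 (0.798%) on chromosome 7 and 0 elsewhere by limma. On those other chromosomes 5.63% had an unadjusted limma p under 0.05 in all 12 libraries. DESeq2 on all 12 libraries called 6 there (0.0145% of 41289, every gene with a p-value). The 11 were the 5 genes and Ano5, Rccd1, Whamm, RP24-330M21.1, RP23-345D18.4 and RP23-181P23.4. Ano5, a membrane protein of the anoctamin family known from muscle and bone, had a log2 change of -1.47, and Whamm, an activator of actin branching at membranes, one of 0.38. As libraries picked for their values at these genes were dropped, these calls are a description.

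Such genes were also counted within 2 Mb of each of the 5. Around Hddc3 and Sh3gl3, 11 of 74 (14.9%) and 9 of 63 (14.3%) other genes were free of overlap without those libraries, and 8 genes were in both lists, as the windows overlap. Around Lrrc28 there were 3 of 27 (11.1%), around Pgpep1l 2 of 20 and around RP23-474B13.5 1 of 17 (5.88%). Each count but the last includes 1 of the 5 genes, the partner of the pair. Over all 12 libraries, an unadjusted limma p under 0.05 was found at 13 of 74 genes around Hddc3, 14 of 63 around Sh3gl3 and 3 of 27 around Lrrc28. It was found at 2 of 20 around Pgpep1l and 7 of 17 around RP23-474B13.5, beside 5.63% of non-receptor genes on other chromosomes. Each count but the last again includes the partner of the pair, and 0 passed 5%, where 0.372% of all tested genes passed. The window of RP23-474B13.5 thus had the lowest share by overlap and the highest by this count.

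The genes whose profile over the 12 libraries was most like that of each of the 5 lay mostly on chromosome 7, though often far away on it. Likeness was the mean absolute difference of standardized log2 values, so 0 is an identical profile, and the median over all genes was 1.08 to 1.145. Lrrc28 and Pgpep1l were 0.155 apart, followed by Olfr293 (0.235 from Lrrc28, 0.201 from Pgpep1l), then Olfr297 for Lrrc28 (0.236) and Whamm for Pgpep1l (0.243). Hddc3 was nearest to Olfr298 (0.189), Itgal (0.202) and Ano5 (0.315), and Sh3gl3 to Rccd1 (0.326), Itgal (0.328) and Ano5 (0.356). RP23-474B13.5 was nearest to receptor genes of the class I cluster, Olfr578 (0.122), Olfr618 (0.161) and Olfr571 (0.162). These likenesses rest on the same libraries and include the difference between the groups.

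Of the 20 most alike genes, 15 lay on chromosome 7 for Lrrc28, 16 for Pgpep1l, 16 for Hddc3, 13 for Sh3gl3 and 20 for RP23-474B13.5, where all 20 were receptor genes; chromosome 7 holds 8.26% of the tested genes. With each group centred on its own mean, so that only the differences among animals of a group remain, the counts on chromosome 7 were 7, 9, 3, 1 and 1. Lrrc28 and Pgpep1l still had each other as the most alike gene (0.248), and Hddc3 still had Olfr298 (0.244). The next most alike genes by these centred profiles were Nol4 and Vsnl1 for Lrrc28, Olfr293 and RP23-181P23.4 for Pgpep1l, and Abhd15 and Itgal for Hddc3. For Sh3gl3 they were Pld5, Tmem40 and RP23-124L1.4, and for RP23-474B13.5 Olfr1177-ps, Zfp953 and Fam132b. So RP23-474B13.5 was like receptor genes of chromosome 7 in profiles that include the group difference, and had 1 gene of chromosome 7 in its nearest 20 by centred profiles. With 2 to 5 reads in each deletion library, counting error is a large part of its centred profile. That profile therefore cannot show whether the likeness holds among animals of one group.

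Lists of genes related to the 4 named ones, by function for 3 of them and by the Lrrc name alone for Lrrc28, held 0 genes past 5%. Only 0.372% of all tested genes passed, so 0 in lists this short says nothing about the families. An unadjusted limma p under 0.05 was found at 5.63% of tested non-receptor genes on other chromosomes. Whether the listed genes differ from the 4 was not tested. Of 24 endophilin partners and relatives, such as the dynamins, synaptojanins, clathrin chains and AP-2 subunits, 0 passed 5% in either direction by limma (1 at an unadjusted p under 0.05) and the median log2 change was -0.01. Sh3gl1, endophilin A2, had 781 ± 40.1 normalized counts in the deletion and 752 ± 33.4 in the wildtype group (SD, n = 6 each). Per kb of exon, Sh3gl1 averaged 153 normalized counts and Sh3gl2, endophilin A1, 23.5, against 6.83 for Sh3gl3 itself over the 12 libraries.

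Of 11 genes of pyroglutamyl and gamma-glutamyl metabolism, 0 passed 5% by limma (2 at an unadjusted p under 0.05; median log2 change 0.05). Pgpep1, the pyroglutamyl-peptidase that Pgpep1l resembles, had 710 ± 25.3 in the deletion and 657 ± 35.5 in the wildtype group (SD, n = 6 each; log2 change 0.11 ± 0.05, SE, adjusted p 0.744, limma). Of 13 genes of the HD domain and of NADPH supply, 12 could be tested and 0 passed (0 at an unadjusted p under 0.05; median 0.03), with Hddc2 at 116 ± 16.4 and 111 ± 17.1. Of 53 tested genes with an Lrrc number, 0 passed (2 at an unadjusted p under 0.05; median -0.02). Over all tested genes the median was 0.01.

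In the authors' deposited table, whose log2 fold change is wildtype over deletion and lies closer to 0 than the estimates above, RP23-474B13.5 had 0.58 with an adjusted p of 3.35e-12. In the authors' deposited table Hddc3 had 0.34 (adjusted p 0.00949), Sh3gl3 0.28 (0.0125) and Lrrc28 -0.33 (0.0132), and Pgpep1l, with -0.22, had an adjusted p of 0.145. The authors' deposited table thus passes 4 of the 5 at 5%, where it passes 91 of 21159 genes (0.43%), and those 4 are its calls among 1550 non-receptor genes of chromosome 7 (0.258%).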

How the data were processed

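RNA from the olfactory mucosa of 6 deletion and 6 wildtype mice was measured, 1 library per animal. Named in the submitters' processing notes are STAR 2.6.0, DESeq2 (no version) and GRCm38.p6. Which counter, annotation and strand setting were used has no entry in the labels and is not given in the sources used here. A table was deposited by the authors with 46297 genes. Per the file headers and values, the authors gave each library as a signal, namely DESeq2-type normalized counts (reads divided by a size factor). Beside it stand the authors' log2 ratio of wildtype to deletion, shrunken towards 0, and its SE. The deposited test statistic is a score, and the authors' p-values come with an adjustment. Since a value is always a multiple of what 1 read is worth in its library, read numbers could be recovered (99.98% or more of values whole to within 0.01). The recovered reads, 13011763 to 23039733 per library, set the counting error.

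Genes with a mean of at least 10 were tested with limma 3.58.1 (mean-variance trend) on log2(value + 1), with Benjamini-Hochberg adjustment over all 19373 genes at 5%. This scale understates the change of low genes. The limma and edgeR steps were tested on simulated counts with 200 changed genes. Alternatives were edgeR 4.0.16 and DESeq2 1.42.0 on recovered reads, other pseudocounts, filters and scaling, a replicate block, covariates for Gm10800 and for mature neuron markers, and fits without each library. The scripts ran in R 4.3.3 and in Python 3.11.15 with pandas 2.3.3 and matplotlib 3.10.9. Gene positions and exon lengths came from GENCODE M21, matched by identifier for 99.8% of genes, and the deletion coordinates were read as GRCm38. Promoter sequences came from RefSeq (GRCm38.p6), where 4 of the 5 genes matched by symbol. Per-kb levels divide by the union of annotated exons.

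The 5 genes, the gene lists and the choice of wildtype library 1 and deletion library 3 were made with earlier results of these data known. Besides the 5, genes were named by a rule: the 3 nearest tested named genes on each side, the 3 most alike in profile, the receptor genes Olfr543 to Olfr545, Olfr292, Olfr295, Olfr297 and Olfr304, Gm10800, and the first gene of each list. The rule also took other non-receptor genes of chromosome 7 past 5% by limma, edgeR or DESeq2 over all libraries, without block or covariate, of which there were 0. Genes named only for their behaviour without some libraries or with a block or covariate, or for their place in a list, were named after their values were seen. The labels do not name litters, so p-values measure the spread between these animals.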

Additional observations from a re-analysis of the deposited data

Results flagged for a closer look

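In 12 of 78 groups of 6 libraries examined (the 5 genes, the receptor genes and the adjoining named genes, each in both genotypes), 1 library lay far from the other 5, with a gap of more than 0.625 of the whole range of the group. Chance gives this in about 1 of 20 groups, but the 5 genes and the 4 receptor genes of the stretch were chosen with these libraries known to stand apart, and they hold 8 of the 12 in 18 groups. Among the adjoining genes it was 3 of 54 groups, about the chance rate. Wildtype library 1 accounted for 7 of the 12. It was far above the other wildtype libraries at Lrrc28 (462 normalized counts) and Pgpep1l (105), and far below them at Hddc3 (105). It was also far above at the receptor genes Olfr292 (62.0), Olfr295 (140) and Olfr297 (201), and far below at Olfr304 (8.32). Deletion library 3 was far above the other deletion libraries at Hddc3 (218) and far below them at the adjoining Unc45a (3340). Sh3gl3 had no such library in either group, and neither had RP23-474B13.5.

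The other distant libraries concerned genes beside the 5 or beside the element. Deletion library 6 was the highest of its group at Olfr545 (3.99) and at Adamts17 (129), and deletion library 1 at Fes (145).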

How the results depend on the processing

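The log2 changes of the 5 genes kept their direction under every alternative that could be run, between 0.44 and 0.64 for Lrrc28, 1.34 and 2.14 for Pgpep1l, -1.50 and -0.78 for Hddc3, -1.997 and -1.13 for Sh3gl3, and -3.35 and -2.07 for RP23-474B13.5. RP23-474B13.5 passed 5% in 24 of 24 alternatives (it is too low for a mean of at least 50, as is Sh3gl3); Lrrc28, Hddc3 and Sh3gl3 passed in 4 and Pgpep1l in 3. Without wildtype library 1 the adjusted p by limma was 0.000846 for Lrrc28, 4.63e-05 for Pgpep1l, 0.00211 for Hddc3 and 0.00897 for Sh3gl3. Without deletion library 3 it was 0.0438 for Lrrc28 and 0.0254 for Hddc3. The 5 genes were chosen on this contrast, and these libraries were left out for their values at such genes. These passes and p-values are therefore a description and carry no test.

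Over all genes limma called 72. A mean of at least 50 gave 40 (fewer genes tested) and the 4 libraries with over 1% of reads in Gm10800 gave 158 (2 against 2; the cause was not tested), while leaving out 1 library gave 61 to 79. Among non-receptor genes of chromosome 7 limma called 1. There were 2 with no filter, 0 with a mean of at least 50, 2 with Gm10800 as a covariate, 4 by DESeq2, 11 without both libraries and 19 in the libraries with over 1% of reads in Gm10800. Leaving out 1 library gave 1 to 10, with 10 without wildtype library 1, 3 without deletion library 3 and 2 without deletion library 4. The replicate block gave 3, with Sh3gl3 at an adjusted p of 0.0297 (limma) and Ano5 besides. Deviations of libraries of the same number from their group means correlated at -0.147 to 0.358. The labels do not say whether the numbers pair the samples, and these correlations cannot settle it.

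The position of deletion library 3 for Hddc3 was 74.0 with both libraries left out of the means, against 88.2. Depth limits Sh3gl3 and RP23-474B13.5, with 7 to 60 and 2 to 40 reads per library.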
